A study of Mus musculus with 5 samples.

Results

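Fibroblast growth factors (FGFs) and their receptors were followed in stromal cells of the mouse oviduct (fallopian tube), as 10 genes of the 23857 in the deposited table: the ligand genes Fgf1, Fgf2, Fgf7, Fgf9, Fgf10 and Fgf18 and the receptor genes Fgfr1, Fgfr2, Fgfr3 and Fgfr4. The genes were taken by name, and all 10 were listed and passed the filter on low values, as did 19292 genes in all. RNA of sorted YFP-positive cells was sequenced in 5 libraries, 1 per young adult female mouse. The 2 control mice, numbered 2 and 3, were labelled Pdgfra-Cre;R26Y wild-type, and the 3 others, numbered 1, 2 and 3, Pdgfra-Cre;Esr1(fl/fl);R26Y. Cre recombinase and the Rosa26-YFP (R26Y) reporter were thus present in both groups, and the floxed Esr1 alleles (the gene of estrogen receptor alpha) set them apart. Cre was driven by Pdgfra, a gene of mesenchymal cells, and a cell that has once recombined the reporter keeps YFP together with its descendants. Values are TPM, transcript abundance per length as parts of 1000000 in each library. The comparison asks which genes differ in oviductal stromal cells when Esr1 is floxed in them.

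FGFs are secreted signals that bind receptor tyrosine kinases together with heparan sulfate. FGFR1, FGFR2 and FGFR3 are spliced into an epithelial (IIIb) and a mesenchymal (IIIc) form. FGF7 and FGF10 are made by mesenchyme and act on the IIIb form of FGFR2 in neighbouring epithelium, FGF9 acts mainly on IIIc forms, and FGF1 binds all receptors. Active receptors signal through FRS2 and GRB2 to the RAS and ERK kinases, which induce ETV factors and feedback inhibitors of the Sprouty and DUSP families. Values per gene do not separate IIIb from IIIc.

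Esr1, the targeted gene, checks the labels. Control mice 2 and 3 held 83.3 and 77.6 TPM of it, against 28.9, 85.0 and 170 TPM in the mice numbered 1 to 3 of the other group. It was lower than in the controls in mouse 1 alone, and levels per gene do not show whether floxed exons are missing. The label is not borne out by Esr1 level in mice 2 and 3, and directions below refer to the libraries labelled knockout. The summed epithelial markers, given below, were also highest in knockout mice 2 and 3. The part of epithelial cells in the Esr1 level was not tested. Reads per TPM, estimated from value steps, ranged from 46.1% of control mouse 2 (knockout mouse 1) to 80.7% (knockout mouse 2) in the other 4 libraries. Pdgfra was at 165 to 298 TPM over the 5 libraries. Stromal markers were present in each, with a summed level of 20124 to 24928 TPM in controls and 13152 to 17168 TPM in libraries labelled knockout. Epithelial, immune, endothelial, smooth muscle and mesothelial markers were detected beside them, and none of the 39 was at 0 in any library. In bulk RNA, fewer cells of a type and less RNA per cell cannot be told apart.

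Fgfr2 was the member with the smallest p. It was higher in all 3 libraries labelled knockout, about 2.40 times the control mean, while Fgf1, Fgf7 and Fgf9 were each lower than in either control. Fgfr1, the most abundant receptor, averaged 83.0 TPM in both groups. None of these differences passed the adjusted threshold of 0.05 over all genes with all 5 libraries. The Fgfr2 difference passed it without knockout mouse 1, where 5.35% of tested genes passed as higher. It did not pass without knockout mouse 2 or without knockout mouse 3 (limma, adjusted p 0.265 and 0.186).

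The sequences before the starts of Fgfr2 and Fgf7 are shown because both genes separated the groups, one higher and one lower, and have a RefSeq promoter entry outside the annotated gene. The lines give the 250 bases before the RefSeq start on the gene's strand, 5′ to 3′, in GRCm38.p6. Capitals mark matches to the estrogen receptor half-site GGTCA on either strand and would also mark the Sp1 GC box GGGCGG. Fgfr2 (minus strand) is shown at chr7:130266809-130267058 and Fgf7 (plus strand) at chr2:126034408-126034657.
Fgfr2: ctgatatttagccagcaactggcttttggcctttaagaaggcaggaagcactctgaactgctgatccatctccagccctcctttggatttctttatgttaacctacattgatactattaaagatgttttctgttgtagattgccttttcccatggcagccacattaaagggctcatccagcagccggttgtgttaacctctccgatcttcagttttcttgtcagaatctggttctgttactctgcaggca
Fgf7: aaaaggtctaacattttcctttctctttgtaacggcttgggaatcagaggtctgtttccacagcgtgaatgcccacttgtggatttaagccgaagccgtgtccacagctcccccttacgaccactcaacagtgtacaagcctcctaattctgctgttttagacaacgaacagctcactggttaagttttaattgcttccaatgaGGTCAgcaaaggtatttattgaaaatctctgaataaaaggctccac

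Both windows were poorer in G and C than the median window of all promoters (52.4%), with 44.0% for Fgfr2 and 43.6% for Fgf7. They held 2 and 6 CpG dinucleotides in that order. The half-site occurred once, in Fgf7, where 35.2% of 32851 windows of this length hold at least 1. The GC box occurred in neither, against 32.7% of all windows. The full estrogen response element, GGTCANNNTGACC, occurred in neither, against 0.0639% of all windows. The half-site is part of the full element, so the searches overlap. Entries were found for 8 of the 10 members. A match is a description of these letters only.

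**Figure D1:**
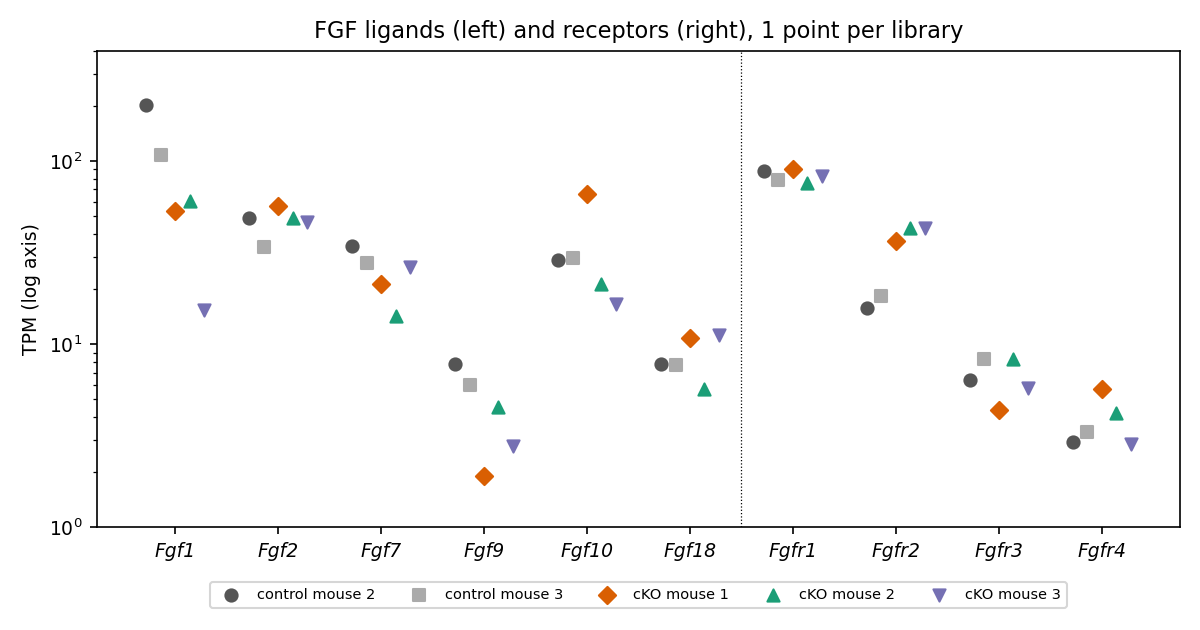
TPM of each member on a log axis, 1 point per library, with ligands on the left and receptors on the right of the dotted line. The Fgfr2 points of the 3 libraries labelled knockout (36.7 to 43.1 TPM) sit above both controls, and their Fgf1 points (15.4 to 60.4 TPM) sit below both.

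Among receptors, Fgfr1 was the most abundant in every library. FGFR1 is the main FGF receptor of mesenchymal cells in its IIIc form. It stood at 87.7 TPM in control mouse 2 and 78.4 TPM in control mouse 3, and at 90.1, 75.7 and 83.2 TPM in knockout mice 1 to 3. The libraries of the groups were interleaved. The control mean was 83.0 ± 6.60 TPM (SD, n = 2) and that of the libraries labelled knockout 83.0 ± 7.24 TPM (SD, n = 3). The log2 fold change (knockout minus control, of log2(TPM + 1)) was -0.0021 (limma, standard error 0.16, adjusted p 0.996). Its 95% interval ran from -0.39 to 0.38, so differences within that range were not excluded. Intervals here are per gene and not adjusted for the number of genes. Its sign changed in 3 of 11 alternative settings, with values of 0.045 to 0.078.

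Fgfr2 encodes the receptor through which FGF7 and FGF10 act on epithelium. Control mouse 2 had 15.7 TPM and control mouse 3 18.4 TPM. Knockout mice 1, 2 and 3 gave 36.7, 43.1 and 43.0 TPM, so the groups did not overlap and the gap between them (18.3 TPM) was larger than the range within either. The control mean of 17.0 ± 1.90 TPM (SD, n = 2) compared with 40.9 ± 3.66 TPM (SD, n = 3). The limma estimate on the log2 scale was 1.22 (standard error 0.18, 95% interval 0.80 to 1.63). It ranked 41st of 19292 genes by p and did not pass the threshold (limma, adjusted p 0.115). The exact permutation p was 0.1, the smallest that 10 assignments of 5 libraries allow. Without knockout mouse 1, whose library stood apart from mice 2 and 3, the estimate was 1.29 and passed (limma, adjusted p 0.0140). That fit leaves out the only library labelled knockout in which Esr1 was lower than in the controls (28.9 TPM).

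Epithelial markers differed between libraries, and their values are given beside Fgfr2 because oviductal epithelium can express it. The 12 markers summed to 3139 and 3417 TPM in controls. They reached 12221 and 13363 TPM in knockout mice 2 and 3, where 11 of 12 lay above both controls in each, and 2217 TPM in knockout mouse 1, where 0 lay above and 8 below. Most of each sum was 1 marker, Ovgp1. It gave 2273 and 2463 TPM in controls and 1522, 10655 and 11258 TPM in knockout mice 1 to 3. The median log2 fold change of the 12 markers was 0.52. In knockout mouse 1, where the summed markers were lower than in the controls, Fgfr2 was at 36.7 TPM. The part of epithelial cells in the Fgfr2 difference was not tested. The fit without that library sets the controls against mice 2 and 3, the libraries in which these markers were high.

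**Figure D2:**
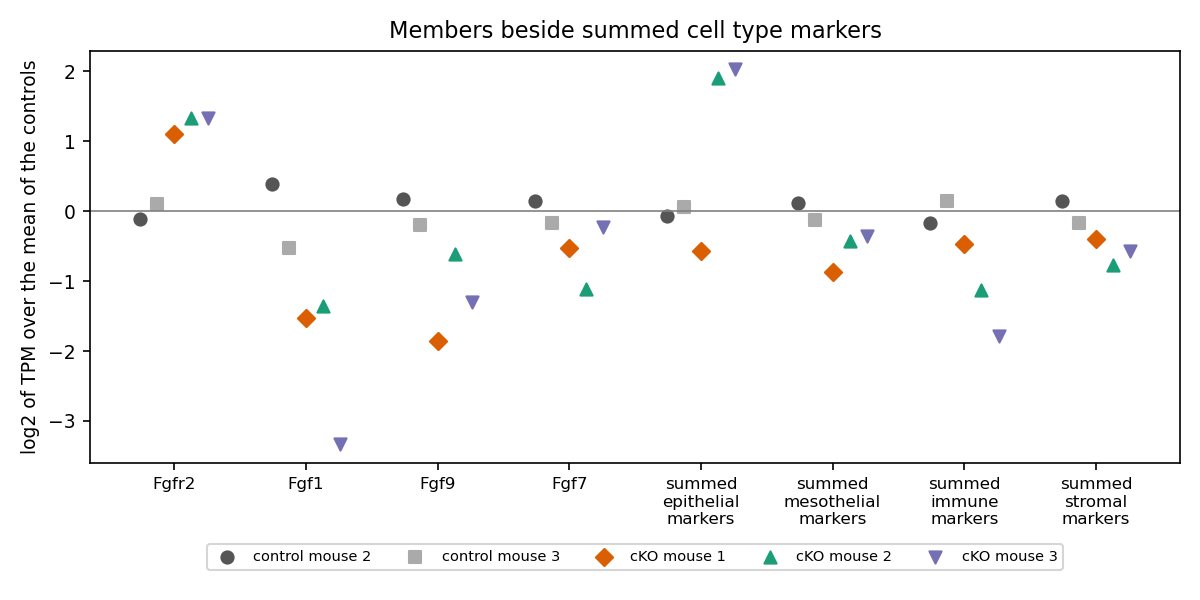
Log2 of the level in each library over the mean of the 2 controls, for 4 members and for the summed TPM of 4 lists of cell type markers. In knockout mouse 1, Fgfr2 is at 1.11 while the summed epithelial markers are at -0.56. Most of the epithelial sum is the marker Ovgp1.

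Fgfr3 and Fgfr4 were low. Fgfr3, a receptor known from cartilage and epithelium, stood at 6.38 and 8.29 TPM in control mice 2 and 3, while knockout mice 1 to 3 gave 4.38, 8.28 and 5.73 TPM. Its groups overlapped (log2 fold change -0.25, standard error 0.29, 95% interval -0.95 to 0.44, limma adjusted p 0.694). Fgfr4, known from liver as the receptor for FGF15, gave 2.94 and 3.30 TPM in controls, then 5.71, 4.23 and 2.84 TPM in knockout mice 1 to 3. The lowest value of all was in knockout mouse 3 and the groups overlapped (log2 fold change 0.32, standard error 0.30, 95% interval -0.40 to 1.03, limma adjusted p 0.630). Roughly 85 to 160 reads lay behind each Fgfr4 value.

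The receptors were also set against each other within a library, where the total scale cancels. Fgfr2 made up 13.9% and 17.0% of the summed TPM of the 4 receptors in control mice 2 and 3. In knockout mice 1, 2 and 3 its share was 26.8%, 32.8% and 31.9%, above both controls in each. Fgfr1 went from 75.1% ± 3.87 (SD, n = 2) to 61.7% ± 4.09 (SD, n = 3). The exact permutation p was 0.1 for each of these shares. Shares are parts of 1 whole, so they are not independent, and Fgfr1 itself averaged 83.0 TPM in both groups. The summed receptor level was 113 and 108 TPM in the controls, below the 131 to 137 TPM of the libraries labelled knockout.

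**Figure D3:**
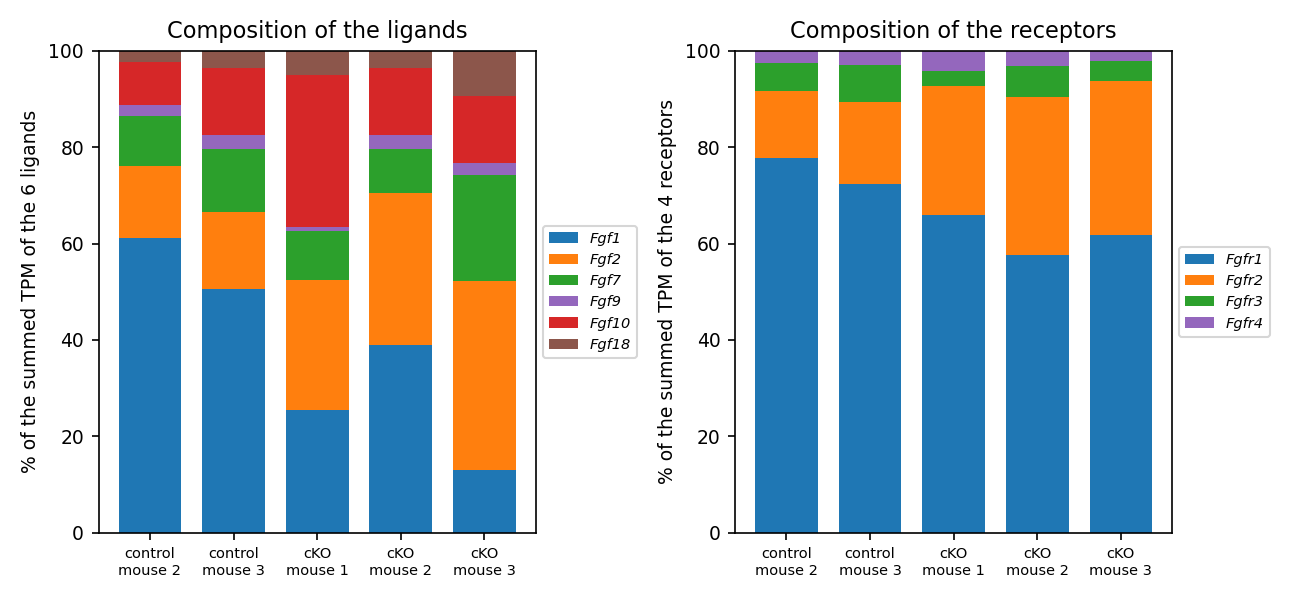
Share of each ligand in the summed TPM of the 6 ligands (left) and of each receptor in that of the 4 receptors (right), in percent, 1 bar per library. The Fgf1 share is 50.6% or more in controls and 39.0% or less in the libraries labelled knockout, and the Fgfr2 share is 17.0% or less against 26.8% or more.

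Among ligands, Fgf1 was the most abundant in controls. FGF1 is a broad ligand that leaves cells without a signal peptide. It measured 202 TPM in control mouse 2 and 107 TPM in control mouse 3. Knockout mice 1, 2 and 3 held 53.5, 60.4 and 15.4 TPM, each lower than either control, although control mouse 3 was nearer to knockout mouse 2 than to control mouse 2. The control mean, 155 ± 66.7 TPM (SD, n = 2), was 3.59 times that of the other group, 43.1 ± 24.3 TPM (SD, n = 3). The log2 fold change of -1.96 had a standard error of 0.58 and a 95% interval of -3.35 to -0.58. It did not pass the threshold (limma, adjusted p 0.259, exact permutation p 0.1). Leaving out knockout mouse 3, the lowest library, gave -1.36, and leaving out knockout mouse 1 gave -2.22 (limma, adjusted p 0.0796).

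Fgf7 and Fgf10 are the mesenchymal ligands of epithelial FGFR2. Fgf7 stood at 34.3 and 27.6 TPM in control mice 2 and 3. It stood at 21.4, 14.2 and 26.3 TPM in knockout mice 1 to 3, with mouse 3 only just under the lower control. On the log2 scale it differed by -0.59 (standard error 0.27, 95% interval -1.24 to 0.059, limma adjusted p 0.394). Fgf10 gave 28.9 and 29.7 TPM in the controls, close together, and 66.3, 21.4 and 16.6 TPM in knockout mice 1 to 3. Mouse 1 was thus above and mice 2 and 3 below both controls, and the limma estimate of -0.022 (standard error 0.53, adjusted p 0.985) covers libraries on both sides. Without knockout mouse 1 it was -0.61 (limma, adjusted p 0.0784), and without knockout mouse 3 it was 0.36. Whether Fgf7 and Fgf10 differ in their response was not tested.

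Fgf9, whose product acts on mesenchymal receptors, was low and lay below both controls throughout. Control mice 2 and 3 gave 7.78 and 5.99 TPM, and knockout mice 1 to 3 gave 1.90, 4.52 and 2.79 TPM. The limma estimate was -0.996 on the log2 scale (standard error 0.33, 95% interval -1.78 to -0.22), which did not pass (adjusted p 0.297, exact permutation p 0.2). Between about 44 reads, in knockout mouse 1, and 390 reads, in control mouse 2, lay behind these values. Levels of genes not known from stroma moved in the same direction: over 1117 olfactory receptor genes the 95th percentile was 1.70 and 2.18 TPM in the controls and 0.975, 1.52 and 0.716 TPM in knockout mice 1 to 3. Fgf9 was above that percentile in each library, and the part of this background in its difference was not tested.

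Markers of mesothelium, which lines the oviduct and can express Fgf9, were also lower. Of 5 markers, Msln, Upk3b, Lrrn4 and Upk1b were lower than in either control in mice 1 to 3 of that group, and Wt1 was higher. Their summed level was 649 and 551 TPM in controls and 329, 445 and 468 TPM in knockout mice 1 to 3. Of 8 immune markers, 6 were below both controls in all 3, with a summed level of 2232 to 2778 TPM in controls and 726 to 1815 TPM in the others. Most of each immune sum was 1 marker, Lyz2. It gave 1546 and 2125 TPM in controls and 1163, 738 and 552 TPM in knockout mice 1 to 3. Stromal markers were lower too. Of 9, 5 were below both controls in all 3 and 0 above, with a median log2 fold change of -0.69. Over all tested genes, groups did not overlap for 21.9% as lower and 11.9% as higher. The part of mesothelial, immune and stromal cells in the lower Fgf1, Fgf7 and Fgf9 values was not tested.

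Fgf2, a ligand stored in matrix on heparan sulfate, stood at 48.8 and 34.1 TPM in control mice 2 and 3, and knockout mice 1 to 3 gave 56.8, 48.7 and 46.7 TPM. Control mouse 2 lay within the range of the other group (log2 fold change 0.30, standard error 0.21, 95% interval -0.19 to 0.79, limma adjusted p 0.521). Fgf18, a ligand of IIIc receptors known from bone and lung mesenchyme, measured 7.83 and 7.69 TPM in the controls and 10.8, 5.70 and 11.2 TPM in knockout mice 1 to 3. Mice 1 and 3 were above and mouse 2 below both controls (log2 fold change 0.17, standard error 0.31, 95% interval -0.55 to 0.90, limma adjusted p 0.801).

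The ligands were set against each other in the same way. Fgf1 held 61.3% and 50.6% of the summed TPM of the 6 ligands in control mice 2 and 3. Knockout mice 1 to 3 gave 25.4%, 39.0% and 12.9%. Fgf2 held 15.4% ± 0.869 (SD, n = 2) and 32.5% ± 6.21 (SD, n = 3), and it was the largest ligand in knockout mouse 3. Fgf10 was the largest in knockout mouse 1, at 31.5%. The exact permutation p was 0.2 for the Fgf1 share and 0.1 for the Fgf2 share. These shares are likewise not independent, and the TPM of Fgf2 overlapped between groups.

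Ordered by mean TPM, which is per length, the controls ran Fgf1, Fgfr1, Fgf2, Fgf7, Fgf10, Fgfr2, Fgf18, Fgfr3, Fgf9 and Fgfr4. The neighbours Fgf2 and Fgf7, Fgf7 and Fgf10, Fgf18 and Fgfr3, and Fgfr3 and Fgf9 overlapped between libraries. In the libraries labelled knockout the order was Fgfr1, Fgf2, Fgf1, Fgfr2, Fgf10, Fgf7, Fgf18, Fgfr3, Fgfr4 and Fgf9. There, Fgfr1 stood clear of Fgf2 and Fgf7 stood clear of Fgf18, and every other pair of neighbours overlapped.

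**Figure D4:**
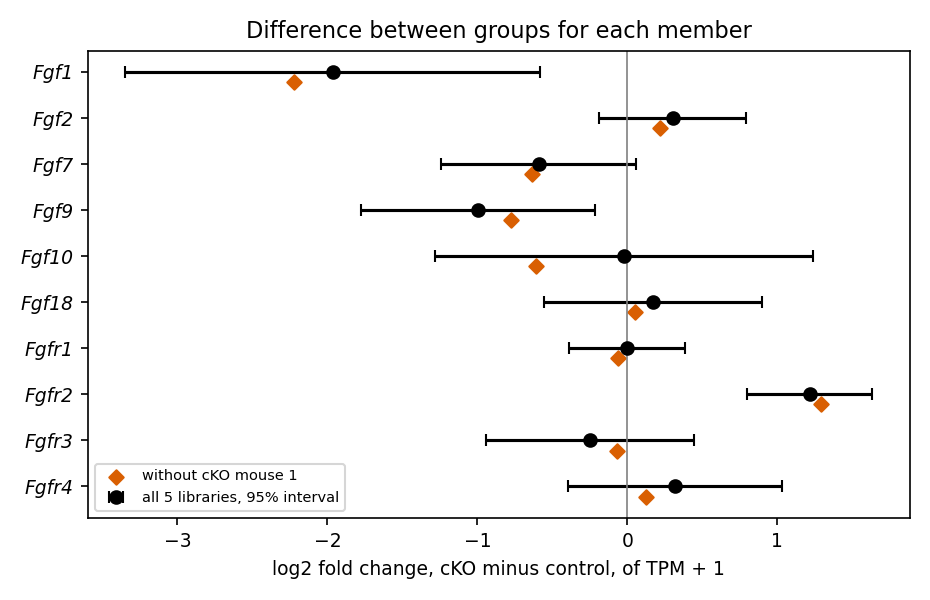
Log2 fold change of each member, libraries labelled knockout minus controls on the log2(TPM + 1) scale, with the 95% limma interval from all 5 libraries (black) and the value without knockout mouse 1 (orange diamond). The intervals of Fgf1, Fgf9 and Fgfr2 exclude 0, and Fgf10 moves from -0.022 to -0.61 when that library is left out.

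Over all 10 members, 0 passed the adjusted threshold (limma), where 0.0104% of tested genes passed as higher and 0.0156% as lower. An unadjusted p under 0.05 was reached by 1 higher member, Fgfr2, and by 2 lower, Fgf1 and Fgf9, against 3.70% and 9.87% of tested genes. The groups did not overlap for 1 higher member (10% of the members) and 3 lower (30%), where 11.9% and 21.9% of all tested genes did so, and these shares are near the background. The median log2 fold change was -0.012 over the members and -0.022 over all tested genes. Without knockout mouse 1, 1 member passed as higher and 0 as lower, against 5.35% and 2.63% of tested genes.

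The rest of the pathway was described from 7 lists with 79 genes, of which 75 were tested and 0 passed in either direction (limma). An unadjusted p under 0.05 was reached by 3 higher and 11 lower genes, where 3.70% and 9.87% of all tested genes reached it. Groups did not overlap for 7 higher and 24 lower, against 11.9% and 21.9% of all tested genes. The median log2 fold change over the 75 was -0.026. Without knockout mouse 1, 5 passed as higher (Fgfrl1, Gpc4, Gab1, Spry1 and Il17rd) and 3 as lower (Flrt3, Fosl1 and Myc), where 5.35% and 2.63% of all tested genes did. Fgfrl1, the decoy receptor, named here after its values were seen, measured 24.4 and 16.9 TPM in controls and 15.4, 39.9 and 44.1 TPM in knockout mice 1 to 3, so it was high in the same libraries as the epithelial markers.

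Other secreted ligands were low. None of the 12 exceeded 5.68 TPM in any library, and 10 were tested, with 9 below and 1 above 0 and a median log2 fold change of -0.65. Fgf21, an endocrine ligand, was the highest, with 4.25 and 5.68 TPM in controls and 1.79, 0.855 and 2.57 TPM in knockout mice 1 to 3 (limma, adjusted p 0.257). Fgf17 gave 3.07 and 3.06 TPM in controls and 0.613, 1.52 and 0.551 TPM in those mice (log2 fold change -1.14, limma adjusted p 0.235). The lower values in this list run with the lower 95th percentile of the olfactory receptor genes in knockout mice, given above, and its part in them was not tested. Of the intracellular FGF homologous factors, which are not secreted and bind sodium channels, Fgf11 was the most abundant, with 7.85 and 7.74 TPM in controls and 15.1, 9.26 and 11.5 TPM in knockout mice 1 to 3. Fgf12 gave 4.16 and 3.10 TPM in controls against 0.697, 1.50 and 0.926 TPM in the other group. Neither passed (log2 fold changes 0.53 and -1.19, limma adjusted p 0.391 and 0.206).

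Among co-receptors, the decoy receptor and carriers, 5 of 7 tested genes had values below 0, with a median of -0.67. Flrt2, a membrane protein of a family that binds FGF receptors, measured 125 and 78.1 TPM in controls and 51.9, 51.5 and 51.2 TPM in knockout mice 1 to 3. All 3 lay below both controls and close to each other (log2 fold change -0.93, standard error 0.22, limma adjusted p 0.198). Heparan sulfate genes were split, with 10 of 20 above and 10 below 0 and a median of -0.0090. Gpc3, a glypican, overlapped between groups, with 269 and 326 TPM in controls and 240, 316 and 384 TPM in knockout mice 1 to 3. Hspg2, the gene of perlecan, a heparan sulfate proteoglycan of basement membranes, went from 492 and 307 TPM in controls to 239, 224 and 180 TPM, below both controls (log2 fold change -0.86, standard error 0.25, limma adjusted p 0.243).

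Downstream, 15 of 18 adaptors and kinases had values above 0, within a narrow range of -0.062 to 0.60 and with a median of 0.20. Mapk3, the gene of ERK1, was the most abundant, at 154 and 136 TPM in controls and 149, 176 and 198 TPM in knockout mice 1 to 3, with overlap. Gab1, a docking protein, gave 33.8 and 35.1 TPM in controls and 43.5, 55.2 and 61.7 TPM in the others (log2 fold change 0.60, limma adjusted p 0.288).

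Genes that FGF signalling is known to induce had values on both sides of 0. Of 11 feedback inhibitors, 2 had all knockout libraries above both controls and 6 had all below, against 11.9% and 21.9% of all tested genes, and the median was -0.32. Spry1, a Sprouty inhibitor of receptor tyrosine kinase signalling, stood at 36.1 and 36.8 TPM in controls against 60.0, 67.6 and 64.3 TPM in knockout mice 1 to 3. Its groups were far apart for their spread (log2 fold change 0.79, standard error 0.15, limma adjusted p 0.157), and it passed without knockout mouse 1 (0.84, limma adjusted p 0.0218). Among 6 responsive transcription factors 4 lay below both controls and 0 above, against the same background shares of 21.9% and 11.9%, and nothing particular to these short lists is read from their counts. Egr1, an immediate early gene that tissue dissociation also induces, gave 2008 and 2049 TPM in controls against 1932, 1464 and 988 TPM in knockout mice 1 to 3. Fosl1, an AP-1 subunit, gave 8.78 and 11.5 TPM in controls against 3.86, 3.18 and 2.23 TPM (log2 fold change -1.45, standard error 0.27, limma adjusted p 0.153). Like Spry1, it passed without knockout mouse 1 (-1.59, limma adjusted p 0.0288). In that fit 5.35% of all tested genes passed as higher and 2.63% as lower.

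**Figure D5:**
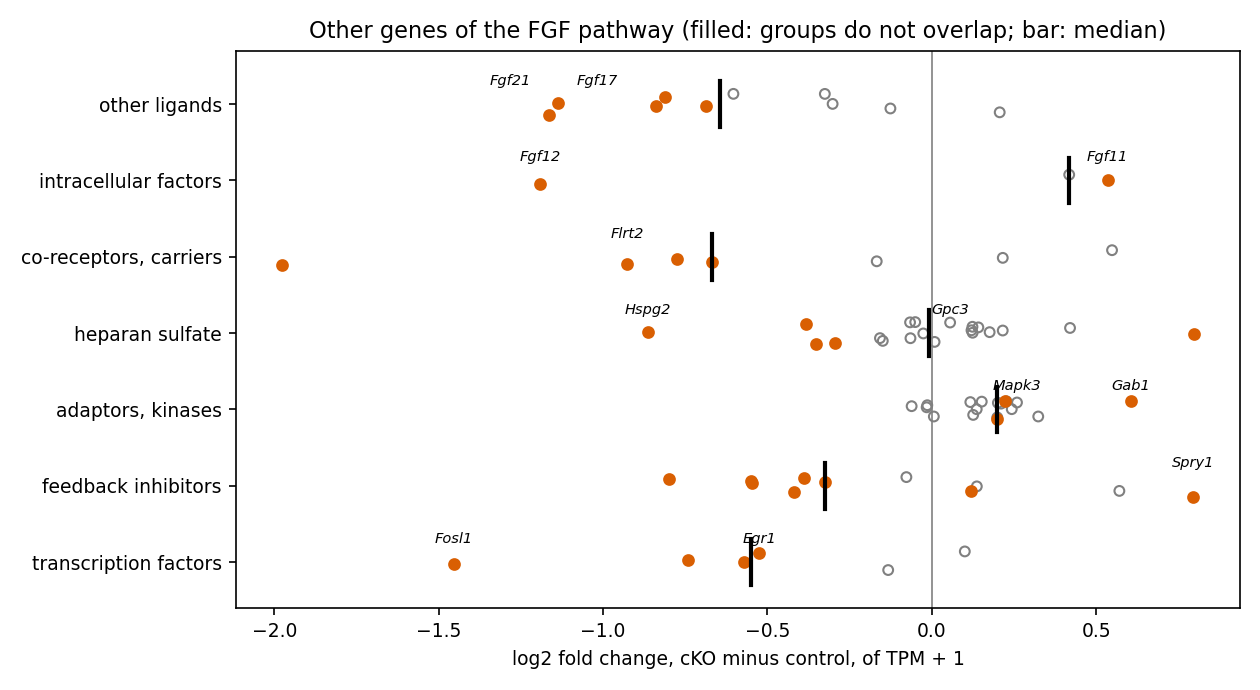
Log2 fold change of the 75 tested genes of the 7 pathway lists, libraries labelled knockout minus controls, 1 point per gene. Filled points are genes whose groups do not overlap, black bars are list medians, and the genes named by rule are labelled, with Spry1 at 0.79 and Fosl1 at -1.45.

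Finally, genes with the pattern most like a member were sought among 12605 tested genes with a mean of at least 5 TPM, by the root mean square difference of centred log2(TPM + 1) over the 5 libraries. Nearest to Fgf1 were Pla1a, a phospholipase gene, at 0.22, Ifi205, at 0.34, and Lipg, an endothelial lipase gene, at 0.37. Ifi205 belongs to a family of near-identical genes, so its level is uncertain. Nearest to Fgfr1 were Tatdn3, Tnip2 and Nucb1, at 0.0099, 0.021 and 0.031. Fgfr1 varied little between libraries (75.7 to 90.1 TPM), so by this measure other genes that vary little lie near it. For Fgfr2, added after its values were seen, they were Aff2, the netrin gene Ntn1 and Uchl1, at 0.082, 0.11 and 0.12. Aff2 measured 8.33 and 8.09 TPM in controls and 18.3, 21.7 and 20.9 TPM in knockout mice 1 to 3 (log2 fold change 1.20, limma adjusted p 0.117). Since it was picked for its likeness to Fgfr2, its difference between groups follows from the choice and is not separate support.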

How the data were processed

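RNA was extracted from sorted cells and libraries were made with a low-input SMARTer kit, per the labels' protocols. The authors deposited TPM per gene in 1 table, 1 column per mouse, summing to 1000000 in each library. STAR is named in the table's title, and the build mm10 (GRCm38) in the submitters' processing notes. The counter, annotation and filters are not given in the sources used here. TPM keeps no total depth. The single gene Rpph1 held 185820 and 213460 TPM in control mice 2 and 3. It held 223130, 143310 and 131220 TPM in knockout mice 1 to 3, which scales all other values unevenly. Rescaled without Rpph1 and Rn45s, the log2 fold change was 1.17 for Fgfr2 and -2.03 for Fgf1.

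Values were fitted as log2(TPM + 1) with limma 3.58.1 in R 4.3.3 (eBayes with trend, genotype as the only term, two-sided) for genes that reached 1 TPM in 2 or more libraries. Adjustment was by Benjamini-Hochberg over all 19292 tested genes, threshold 0.05. This scale understates changes of low genes. In simulated data with 200 changed genes the fit recovered 0% of log2 changes of 1 (19032 genes), 93% of 2 (19029 genes, 21 unchanged genes called) and 99.5% of 3 (19031 genes, 13 unchanged genes called). Reads behind a value are approximate: steps in the values of single-exon genes gave reads per TPM and kb of 13.96 and 8.90 for the controls (mice 2, 3) and 6.43, 11.26 and 9.07 for knockout mice 1 to 3, multiplied by the longest GENCODE M21 transcript. The method was tested on simulated data. Promoter sequences are from RefSeq.

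All members were named, with, in each pathway list, the gene of highest mean TPM and that of smallest p, Esr1, Pdgfra, and the 3 genes most like the most abundant ligand and receptor. Members and lists were chosen with earlier results of these data known. Alternatives were another pseudocount (0.1), other filters and scalings, the mouse number as a block, and leaving out each library. Nothing states that mice came from separate litters or batches, so p-values refer to these mice. They weigh the difference between groups against the spread between libraries within a group, drawn toward a trend over all genes.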

Additional observations from a re-analysis of the deposited data

How the results depend on the processing

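Over 108 alternative values of the member fold changes, 99 had the same sign and call as reported, 3 gained a call and 6 changed sign. The 3 were Fgfr2 without knockout mouse 1, and Fgfr2 and Fgf1 with the mouse number as a block. These 2 settings give the same fold changes. The signs that changed were those of Fgf10 (0.025 with median-of-ratios scaling, 0.18 without knockout mouse 2, 0.36 without mouse 3) and Fgfr1 (0.045 with that scaling, 0.078 without control mouse 2, 0.062 without knockout mouse 2), both near 0. Leaving out each of the 5 libraries in turn, Fgfr2 ranged from 1.11 to 1.32, Fgf1 from -2.42 to -1.36, Fgf9 from -1.24 to -0.78, Fgf7 from -0.78 to -0.36, Fgf10 from -0.61 to 0.36 and Fgfr1 from -0.082 to 0.078. With 1 control left, that library is assumed to vary like the others. Fgf9 and Fgfr4 have no value with a mean TPM of at least 5, since their means are below it.

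With the mouse number as a replicate block, Fgfr2 (1.29, limma adjusted p 0.00855) and Fgf1 (-2.22, adjusted p 0.00767) passed, giving 1 higher and 1 lower member, 5 higher and 5 lower pathway genes, and 1165 higher and 693 lower genes overall. Mouse 1 has no partner there, so the block fit gives the same fold changes as leaving out knockout mouse 1 and is not separate support. Deviations from group means correlated at -0.060 and -0.072 for numbers 2 and 3. With 2 controls these values are not independent of each other, so they cannot settle whether the mice were paired. The labels give only a shared number. Across the fits without 1 library, called members ranged from 0 to 1 higher and 0 lower, pathway genes from 0 to 5 higher and 0 to 3 lower, and all genes from 0 to 1022 higher and 0 to 502 lower, the high ends without knockout mouse 1. The whole-table counts, 2 higher and 3 lower, were 0 and 0 with a pseudocount of 0.1 (where 715 and 1518 reached an unadjusted p under 0.05) and, likewise, when a mean TPM of 5 was required (643 and 746), 1 higher with no filter, 0 higher with median-of-ratios scaling (1290) and, without Rpph1 and Rn45s, 5 lower. For these counts the cause was not tested. Of 76 alternative list medians, 9 moved by more than 1 SD between libraries. Depth limits Fgf18, Fgf9 and Fgfr4 most, each with fewer than 100 reads in at least 1 library.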
